A study of Mus musculus with 12 samples.

Results

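The replication-dependent histone genes were taken as all rows of the deposited gene tables whose symbol starts with Hist1h, Hist2h, Hist3h or Hist4h, 68 of 23955 gene rows. They comprised 6 H1, 18 H2A, 19 H2B, 12 H3 and 13 H4 genes, of which 54 carried the prefix Hist1, 10 Hist2, 3 Hist3 and 1 Hist4. A total of 64 of the 68 passed the filter on low counts that left 14785 genes for testing. Hist1h2aa and Hist1h2ba had 0 CPM (counts relative to the TMM-scaled library size) in all 10 samples, and Hist1h1t and Hist2h2aa2 were too low to be tested.

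RNA came from primary cortical neurons of C57BL/6J embryos at E16.5. Lentivirus was added 1 day after plating, and cells were collected at 7 days from dissection. All groups, the controls included, received a virus of the pGreenPuro backbone that carries a short hairpin RNA. The hairpins were shAdar1 (against Adar, which encodes the RNA-editing enzyme ADAR1), shAdar2 (against Adarb1, which encodes ADAR2), shZfr (against Zfr, which encodes a zinc-finger RNA-binding protein) and the control hairpins shControl2 and shControl1. The study set shAdar1 and shAdar2 against shControl1, and shZfr against shControl2, with 2 biological replicates in each of the 5 groups. Replicate 1 of shAdar2 was sequenced as 3 technical libraries from the same RNA, which were summed to 1 sample. Each knockdown rests on a single named hairpin and no sorting of cells is described, so a sample can hold all the cell types of the culture.

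These genes supply the core histones H2A, H2B, H3 and H4, which wrap DNA into nucleosomes, and the linker histone H1, which binds where DNA enters and leaves the nucleosome. Their transcription is high in S phase, when new chromatin is assembled. Their messages usually lack introns and a poly(A) tail and end instead in a conserved stem-loop that is bound by SLBP, the stem-loop binding protein. Postmitotic neurons do not replicate DNA and rely largely on histone variants made outside S phase, such as H3.3, while some replication-dependent genes can also give rise to polyadenylated messages in differentiated cells. The libraries were depleted of ribosomal RNA rather than selected for poly(A), so both kinds of message could be counted.

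The stem-loop is shown because it is the feature that sets these messages apart from almost all others. A 16-base histone stem-loop word, which is spelled out in the forms below and in which any base was allowed at positions 4, 10 and 13, was searched on the transcript strand of GENCODE M21 transcripts, which 67 of the 68 genes matched through their RefSeq accession. It was found in 42 of these 67 genes. Of 21901 protein-coding genes searched, 45 (0.205%) held it, and these were the same 42 and 3 others (H2afx, H2bfm and Trim17). The letters are not in the annotated transcript of the remaining 25, several of which end at or near the coding sequence, and nothing follows from that about their RNA. The word took 5 forms, with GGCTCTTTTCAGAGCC in 26 genes, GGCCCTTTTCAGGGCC in 7, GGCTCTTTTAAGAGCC in 6, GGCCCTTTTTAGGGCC in 2 and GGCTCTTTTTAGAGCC in 1. The following genes, to which the results return, show these forms with 5 bases on either side, 5′ to 3′ and with the word in capitals.
Hist2h2aa1: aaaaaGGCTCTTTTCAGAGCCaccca
Hist1h1c: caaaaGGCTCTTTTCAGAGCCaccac
Hist3h2a: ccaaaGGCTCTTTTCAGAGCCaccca
Hist1h2bk: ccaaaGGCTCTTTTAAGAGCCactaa
Hist1h3e: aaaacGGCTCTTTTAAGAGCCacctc
Hist1h4c: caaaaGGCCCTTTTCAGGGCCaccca
Hist2h4: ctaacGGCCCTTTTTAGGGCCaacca
Hist2h2ac: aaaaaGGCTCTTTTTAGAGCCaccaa
In 21 of the 42 genes the annotated transcript ran on for more than 100 bases past the stem-loop. It did so for 840 bases in Hist1h1c, 1643 bases in Hist3h2a and 2445 bases in Hist4h4, against 35 bases in Hist2h2aa1 and 30 bases in Hist1h2bk. These are GENCODE transcripts. The models behind the deposited counts of Hist1h1c, Hist3h2a and Hist4h4 had lengths of 725, 508 and 439 bases, shorter than these tails, which they thus do not hold in full.

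Promoters were available from RefSeq (GRCm38.p6, 250 bases before to 50 bases after the start) for 62 of the 68 genes. The letters CCAAT, a word read by the factor NF-Y, were searched on either strand, and a gene counted if any of its promoters held them. They stood in promoters of all 50 H1, H2A, H2B and H3 genes that had one. Of H4 genes 3 of 12 had them (25%), against 41.1% of all 27030 genes with a promoter. TATAAA was present in 56.5% of the histone genes with a promoter and in 15.7% of all such genes. The octamer ATTTGCAT, bound by OCT1, was present in 14 of the 62, all of them H2A or H2B genes, and in 1.97% of all genes with a promoter. A total of 12 pairs of an H2A and an H2B gene stood head to head with 164 to 281 bases between their starts, so that the promoters of such a pair share sequence and are not independent. Promoters are shown for 4 genes whose levels are described below, with matches to the 3 words on either strand in capitals, none of which overlap. A match describes the letters and is not a binding site.
Hist2h2aa1, chr3:96245247-96245546, plus strand: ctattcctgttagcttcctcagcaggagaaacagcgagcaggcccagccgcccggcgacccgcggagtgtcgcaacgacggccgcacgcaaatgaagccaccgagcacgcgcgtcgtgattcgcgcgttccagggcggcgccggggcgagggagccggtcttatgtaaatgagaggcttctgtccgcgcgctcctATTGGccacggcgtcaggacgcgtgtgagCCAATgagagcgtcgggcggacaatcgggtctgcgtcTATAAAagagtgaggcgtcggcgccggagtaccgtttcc
Hist1h1c, chr13:23738557-23738856, plus strand: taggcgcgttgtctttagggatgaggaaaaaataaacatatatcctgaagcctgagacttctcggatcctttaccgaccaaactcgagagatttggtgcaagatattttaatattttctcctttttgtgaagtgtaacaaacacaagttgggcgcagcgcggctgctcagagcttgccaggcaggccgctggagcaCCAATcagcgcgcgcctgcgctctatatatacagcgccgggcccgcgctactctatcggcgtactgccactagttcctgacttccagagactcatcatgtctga
Hist3h2a, chr11:58954435-58954734, plus strand: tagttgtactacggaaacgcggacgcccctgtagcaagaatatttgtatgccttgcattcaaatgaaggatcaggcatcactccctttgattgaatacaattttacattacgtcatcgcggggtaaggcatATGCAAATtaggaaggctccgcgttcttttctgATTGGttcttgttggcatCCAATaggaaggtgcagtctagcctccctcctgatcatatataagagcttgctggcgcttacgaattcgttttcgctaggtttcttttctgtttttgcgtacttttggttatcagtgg
Hist1h4c, chr13:23698409-23698708, minus strand: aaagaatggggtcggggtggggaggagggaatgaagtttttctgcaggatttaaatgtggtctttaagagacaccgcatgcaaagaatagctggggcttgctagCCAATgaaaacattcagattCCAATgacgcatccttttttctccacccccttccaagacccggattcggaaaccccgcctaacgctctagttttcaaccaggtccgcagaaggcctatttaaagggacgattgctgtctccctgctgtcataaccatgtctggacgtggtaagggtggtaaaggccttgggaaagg

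The libraries held between 15818943 and 29671858 expected counts, of which the histone genes made up 0.0436% to 0.198%, or 10674 to 53509 counts per library. The targeted genes were lower in their own groups, with log2 fold changes of -1.69 for Adar in shAdar1 and -1.26 for Adarb1 in shAdar2 against shControl1, and -1.41 for Zfr in shZfr against shControl2. Zfr was also lower in shAdar2 (179.3 and 197.1 CPM) than in shControl1 (289.9 and 267.8 CPM). Adarb1 was also lower in shZfr (49.2 and 45.49 CPM) than in shControl2 (99.38 and 91.96 CPM). In the edgeR test used below, 2 of the 3 targeted genes were called lower in each of these 2 comparisons. The targeted groups had similar levels, with Adarb1 at 48.45 and 52.03 CPM in shAdar2 and Zfr at 172.7 and 172.5 CPM in shZfr. The shAdar2 and shZfr groups thus held both genes at similarly low levels. Between the control hairpins all 3 genes were called, 1 higher (Zfr, 421.7 and 496 CPM in shControl2) and 2 lower in shControl2. Neuronal markers were abundant (summed level of 13 genes 3533 to 8591 CPM), and progenitor (11 genes, 534 to 2629 CPM) and astrocyte markers (8 genes, 395.6 to 1742 CPM) were present in every sample. The 8 microglial markers summed to 1.73 to 10.96 CPM, with the highest sum in replicate 1 of shAdar2, where Cd68 alone had 7.09 CPM. Histone RNA in these cultures can come from several cell types, and in bulk RNA fewer cells of a type cannot be told apart from less RNA per cell.

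Compared per transcript length (TPM, a level relative to transcript length and to all transcripts of the library), H4 messages were the most abundant class, with 27.9% to 49.4% of the summed histone TPM in a sample. H2B messages made up 16.3% to 28.6%, H2A 13.7% to 21.4%, H3 7.58% to 11.7% and H1 6.38% to 15.8%. The single gene with the highest mean level was Hist1h4d in the H4 class (879 TPM over the 10 samples, range 380.4 to 1332). The highest of the other classes were Hist1h2bg for H2B (428 TPM), Hist2h2aa1 for H2A (360 TPM), Hist1h1c for H1 (330 TPM) and Hist1h3e for H3 (190 TPM, range 28.08 to 458.4). The share of H4 was lowest in shZfr (28.1% and 29.8%) and shControl2 (35.8% and 27.9%), against 45.3% and 42.3% in shControl1.

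Summed over all 68 genes, the level was 1072 and 1973 CPM in the 2 shAdar1 samples and 1281 and 1155 CPM in the shAdar2 samples. It was 693.6 and 676.7 CPM in shZfr, 624.1 and 487.4 CPM in shControl2, and 1036 and 654 CPM in shControl1. Replicate 2 of shAdar1 therefore stood above every other sample, and in shControl1 replicate 2 was the higher in 3 of the 64 tested genes (median log2 of replicate 2 over 1 -0.68). Within shAdar1, replicate 2 was the higher in 61 of 64 genes (median 0.81). The shAdar2 and shZfr replicates differed by medians of 0.04 and -0.02. The 3 technical libraries of shAdar2 replicate 1 gave sums of 1301, 1562 and 1517 CPM, each scaled to its own total, and among 53 genes with at least 50 counts in each of them the highest exceeded the lowest by a median of 1.47-fold and by more than 2-fold in 6.

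**Figure D1:**
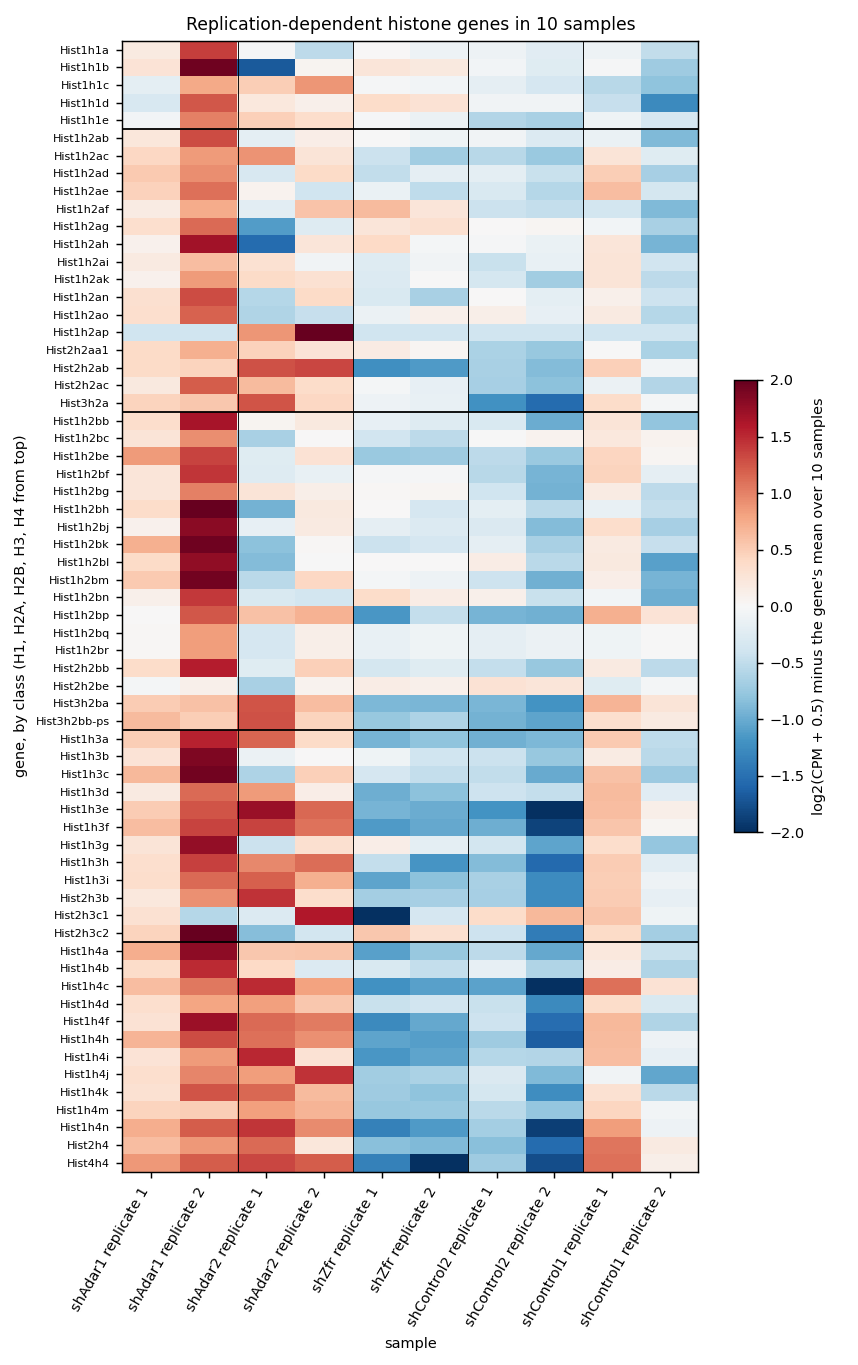
Level of each tested histone gene (rows, grouped by class) in the 10 samples (columns), as log2(CPM + 0.5) minus the gene's mean over the samples; red is above and blue below that mean. Replicate 2 of shAdar1 is red in nearly all rows, and most H3 and H4 rows are blue in the shZfr and shControl2 columns.

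An effect of any kind among the 5 groups was called (edgeR quasi-likelihood F test, Benjamini-Hochberg adjusted p below 0.05) in 52 of the 64 genes. That is 81.2% of them, beside 79% of all genes tested, so the share is near the background of these libraries. Among the 12 genes not called was Hist2h2be, an H2B gene known for a polyadenylated message in non-dividing cells and for a role in olfactory sensory neurons. Its level lay between 4.83 and 9.78 CPM in all samples.

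**Figure D2:**
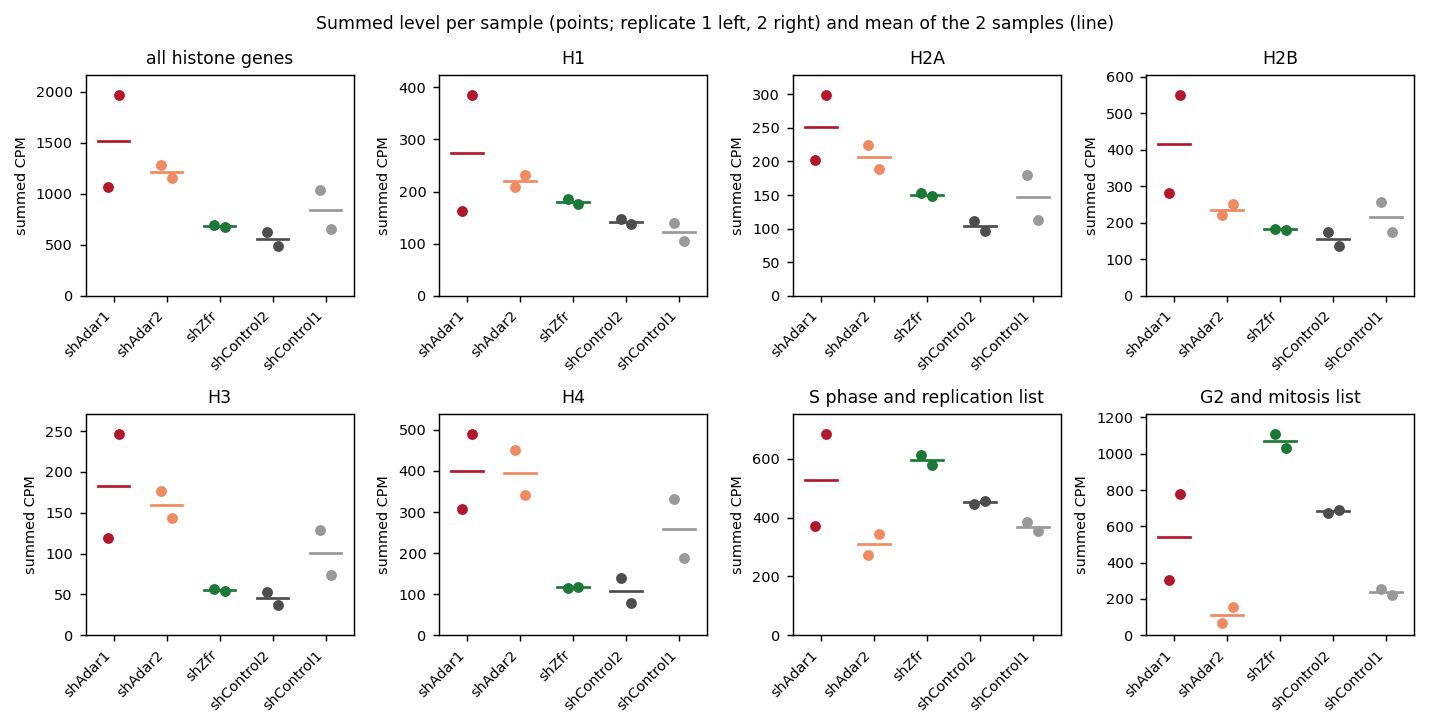
Summed CPM of all histone genes, of each class, and of the S phase and the G2 and mitosis gene lists, per sample; points are samples and lines the means of the 2 samples of a group. H3 and H4 sums are low in shZfr and shControl2 samples, where the G2 and mitosis sum is higher (1109 and 1031 CPM in shZfr, 672.8 and 691.1 CPM in shControl2) than in shControl1 (254.8 and 221.6 CPM).

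Histone genes rose in the Adar knockdown, with called genes in the H1, H2A, H2B and H4 classes. Of the 64 genes, 11 rose and 0 fell in shAdar1 against shControl1, or 17.2% higher, where 9.33% of all genes were called higher and 6.9% lower. The median log2 fold change was 0.83 over the histone genes and 0.02 over all genes tested, and 62 of 64 values were positive. Both shAdar1 samples lay above both shControl1 samples in 38 genes (59.4%, against 31.5% of all genes). The called genes were Hist1h1a, Hist1h1c and Hist1h1d of 5 tested H1 genes, Hist1h2ab, Hist2h2aa1 and Hist2h2ac of 16 H2A genes, Hist1h2be, Hist1h2bh, Hist1h2bk and Hist1h2bm of 18 H2B genes, and Hist1h4a of 13 H4 genes. None of 12 H3 genes was called, although 5 had an unadjusted p below 0.05 in the same edgeR test. Their median log2 fold change of 0.76 lay between those of H4 (0.56) and H2A (0.80), and with an offset for transcript length, added after seeing the data, Hist1h3b was called higher (1.58, adjusted p = 0.0414). Differences between the classes were not tested.

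Among the linker histones, Hist1h1c (histone H1.2, GRCm38 chr13:23738807-23739531, plus strand) had 48.69 and 93.91 CPM in shAdar1 and 37.7 and 31.72 CPM in shControl1. The shAdar1 samples differed from each other more than the shControl1 samples did, and the groups did not overlap. Its log2 fold change was 1.04 ± 0.26 (SE, adjusted p = 0.0269), or 2.06-fold. Hist1h1d (H1.3) had 29.93 and 88.86 CPM in shAdar1 and 26.9 and 15.17 CPM in shControl1 (1.5 ± 0.42, adjusted p = 0.0391). For this gene replicate 1 of shAdar1 was close to replicate 1 of shControl1, and the difference came mostly from replicate 2.

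Of the H2A genes, Hist2h2aa1 (GRCm38 chr3:96245497-96246052, plus strand) had 53.7 and 67.84 CPM in shAdar1 and 41.2 and 26.47 CPM in shControl1, and rose 1.8-fold (0.85 ± 0.20, adjusted p = 0.0202). Its near-identical neighbour Hist2h2aa2 held almost no counts, and their sum gave a log2 ratio of 0.84. Hist1h2ab had 13.76 and 29.53 CPM in shAdar1 and 10.65 and 6.12 CPM in shControl1 (1.38 ± 0.35, adjusted p = 0.0295). Hist2h2ac, whose stem-loop form was found in no other of these histone genes, had 8.56 and 17.81 CPM in shAdar1 and 6.76 and 4.80 CPM in shControl1 (1.2 ± 0.32, adjusted p = 0.0347). Its head-to-head partner Hist2h2be, 192 bases away, had a log2 value of 0.18 ± 0.25 (adjusted p = 0.657).

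Of the H2B genes, Hist1h2bk had 14.58 and 35.06 CPM in shAdar1 and 9.92 and 6.18 CPM in shControl1 (1.63 ± 0.43, adjusted p = 0.0332). Its head-to-head partner Hist1h2ah, which was not called, had a log2 value of 1.53. Hist1h2be had 34.8 and 49.77 CPM in shAdar1 and 25.94 and 19.68 CPM in shControl1 (0.89 ± 0.23, adjusted p = 0.0304). Hist1h2bh (1.94 ± 0.58, adjusted p = 0.049) and Hist1h2bm (1.79 ± 0.53, adjusted p = 0.0476) showed the largest changes but lay near the threshold. In the H4 class, Hist1h4a had 26.69 and 56.37 CPM in shAdar1 and 18.6 and 11.56 CPM in shControl1 (1.47 ± 0.35, adjusted p = 0.0209).

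The result in shAdar1 depended on single libraries. Without replicate 2 of shAdar1, 0 genes were called and the median was 0.38, and without replicate 2 of shControl1 0 were called with a median of 0.56. Without replicate 1 of shAdar1 25 genes were called, and with only these 4 samples in the fit 1 gene was called. Genes of the cell cycle moved with the same library. The S phase list summed to 371.6 and 684.6 CPM in shAdar1, against 386 and 353.5 CPM in shControl1, with 6 of 34 members called higher (17.6%, beside 9.33% of all genes). The G2 and mitosis list summed to 306.7 and 780 CPM in shAdar1, against 254.8 and 221.6 CPM in shControl1, with 4 of 20 called higher (20%). Progenitor and radial glia markers summed to 1148 and 2269 CPM in shAdar1, against 1191 and 912.7 CPM in shControl1, with 1 of 11 called higher (9.09%, near the background). Astrocyte markers summed to 835.3 and 1112 CPM in shAdar1, against 554.9 and 395.6 CPM in shControl1, with 4 of 8 called higher (50%). Oligodendrocyte lineage markers summed to 141.9 and 407.5 CPM in shAdar1, against 119.9 and 76.39 CPM in shControl1, and all 7 values were positive (median 1.6) although 0 were called. All these sums were highest in replicate 2 of shAdar1 among the 4 samples. Neuronal markers summed to 6528 and 5800 CPM in shAdar1, against 5429 and 5140 CPM in shControl1, with 4 of 13 called higher (30.8%). The neuronal sum was thus highest in replicate 1 of shAdar1. The part of all these lists in the histone result was not tested.

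Named from these lists, Rrm2, a subunit of ribonucleotide reductase that supplies deoxynucleotides, had 26.19 and 56.74 CPM in shAdar1 and 16.37 and 13.46 CPM in shControl1 (1.48 ± 0.31, adjusted p = 0.0128). Ccna2, the cyclin of S phase and G2, had 15.81 and 41.11 CPM in shAdar1 and 9.8 and 7.92 CPM in shControl1 (1.69 ± 0.38, adjusted p = 0.0165). Both were higher in replicate 2 of shAdar1, the sample with the highest histone sum, than in replicate 1. The histone chaperone subunits Chaf1a (0.64, adjusted p = 0.0453) and Chaf1b (1.01, adjusted p = 0.0496), which deposit new H3 and H4 behind the replication fork, also rose.

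**Figure D3:**
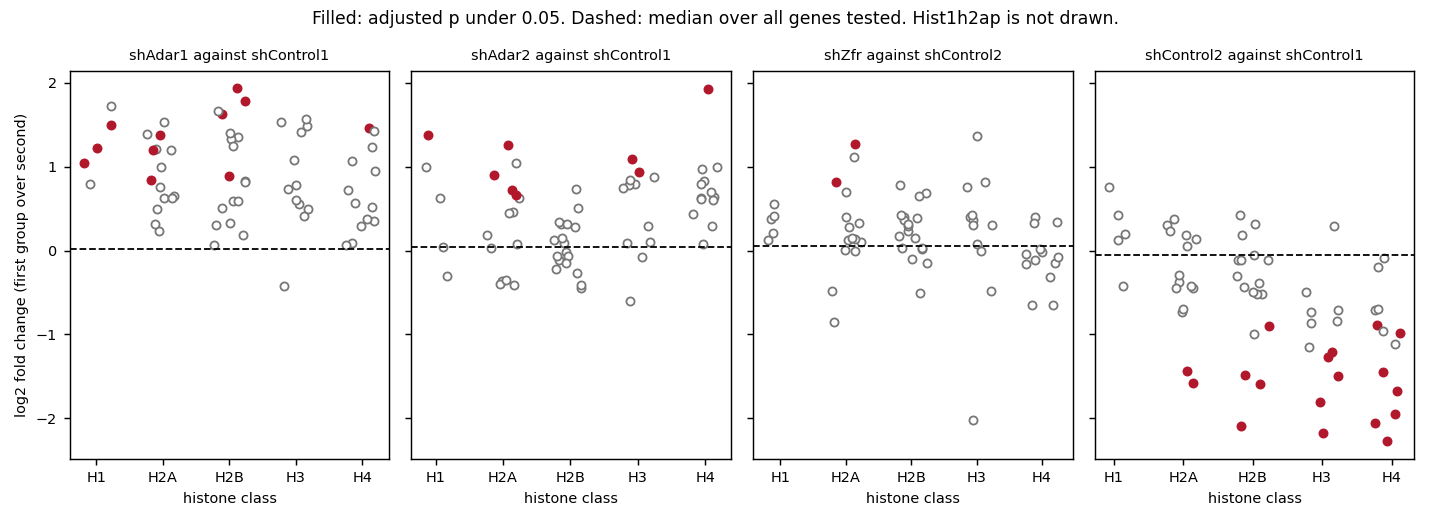
Log2 fold change of each tested histone gene except Hist1h2ap, by class in the 4 comparisons; filled points have an adjusted p below 0.05 and the dashed line is the median over all genes tested. In shAdar1 nearly all points lie above the line (median 0.83), in shAdar2 the H2B points centre near it (median 0.03), and in shControl2 all H4 points and all but 1 of the H3 points lie below it (medians -0.98 for H4 and -1.01 for H3).

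In the Adarb1 knockdown the share of histone genes called lay below that of all genes. Of 64 genes, 9 rose and 0 fell in shAdar2 against shControl1, or 14.1% higher, beside 23.2% of all genes called higher and 23.2% called lower. The median log2 fold change was 0.39, against 0.04 over all genes. The classes differed in their medians, with 0.63 for H1, 0.45 for H2A, 0.77 for H3 and 0.64 for H4 but 0.03 for H2B, of which 0 of 18 were called and 2 had an unadjusted p below 0.05. Both shAdar2 samples lay above both shControl1 samples in 24 genes (37.5%, against 35.7% of all genes), close to the background. This comparison shares its shControl1 samples with the one of shAdar1.

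Hist1h1c had 78.24 and 103 CPM in shAdar2 and 37.7 and 31.72 CPM in shControl1, and rose 2.61-fold (1.38 ± 0.26, adjusted p = 0.00242). It was the only H1 gene called, and Hist1h1b was lower in 1 shAdar2 sample and higher in the other (4.55 and 16.42 CPM) than in shControl1 (15.41 and 9.37 CPM). Among the other genes, Hist1h4j had 4.65 and 7.31 CPM in shAdar2 and 2.23 and 0.902 CPM in shControl1 (1.93 ± 0.47, adjusted p = 0.00857). Hist2h2ab had 4.29 and 4.53 CPM in shAdar2 and 2.27 and 1.42 CPM in shControl1 (1.26 ± 0.32, adjusted p = 0.00977). Both are low genes whose groups did not overlap.

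Hist2h2aa1 had 56.84 and 49.85 CPM in shAdar2 against the same shControl1 values (0.66 ± 0.20, adjusted p = 0.0217). Hist3h2a (GRCm38 chr11:58954685-58955192, plus strand), an H2A gene outside the large clusters, had 76.06 and 42.16 CPM in shAdar2 and 41.16 and 30.79 CPM in shControl1 (0.72 ± 0.25, adjusted p = 0.0386). Replicate 2 of shAdar2 was nearly level with replicate 1 of shControl1, and without replicate 1 of shAdar2 the value was 0.22 (adjusted p = 0.368). The call was also lost without either shControl1 replicate (0.94 with adjusted p = 0.0508 and 0.52 with adjusted p = 0.226). Of the H3 genes, Hist1h3e had 43.28 and 28.85 CPM in shAdar2 and 19.95 and 13.94 CPM in shControl1 (1.1 ± 0.37, adjusted p = 0.0339), and Hist1h3f rose by a similar size (0.94 ± 0.33, adjusted p = 0.0401). Hist2h2ac also rose (0.9 ± 0.32, adjusted p = 0.0437).

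The 9th call, Hist1h2ap, is uncertain. It had 0.713 and 2.84 CPM in shAdar2 and 0 CPM in the other 8 samples. In the 2 shControl1 libraries the posterior SD of its count, which reflects the division of reads among similar genes, was 8.84 and 8.69 counts. That is above a floor of 3 counts, so no lower bound of the fold is given. Hist1h2ap is near-identical to Hist1h2ao, and the sum of both was 8.45 and 11.45 CPM in shAdar2 and 13.8 and 7.99 CPM in shControl1 (log2 ratio -0.13). In the technical libraries of shAdar2 replicate 1, made from the same RNA, Hist1h2ap had 1.76, 0 and 0.586 CPM while Hist1h2ao had 7.32, 15.37 and 3.84. The reads of the pair were thus divided differently between libraries of the same RNA.

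The calls in shAdar2 also moved with single libraries. Without replicate 2 of shControl1 2 genes were called, without replicate 1 of shAdar2 5, and without replicate 2 of shAdar2 17 higher and 2 lower. In the same comparison 5 of 34 S phase genes were called lower and 1 higher, and 5 of 20 G2 and mitosis genes were called lower. These shares lower, 14.7% and 25%, lay below and near the 23.2% of all genes called lower, and the medians were -0.09 and -0.94. The G2 and mitosis list summed to 66.9 and 157.1 CPM in shAdar2 and 254.8 and 221.6 CPM in shControl1, and Pcna, the sliding clamp of DNA polymerase, fell with a log2 fold change of -1.01 ± 0.20 (adjusted p = 0.00306). All 12 interferon-stimulated genes rose (median 5.41). The microglial markers summed to 10.96 and 4.04 CPM in shAdar2 and 2.96 and 2.25 CPM in shControl1, with 1 of 4 tested markers (Cd68) called higher. The histone sum was thus higher and both cell cycle sums lower in the 2 shAdar2 samples than in the 2 shControl1 samples, and the part of the interferon, microglial and cell cycle genes in the histone values was not tested.

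Tested directly, shAdar2 differed from shAdar1 in 16 histone genes. In shAdar2 against shAdar1 2 of 64 were higher (3.12%) and 14 lower (21.9%), beside 17% of all genes called higher and 21% lower. The share lower was thus near the background and the share higher below it. Of the 14 lower genes 8 were H2B genes, with a class median of -1, whereas the H4 median was 0.11 with 0 of 13 called. Hist1h2bk had 4.75 and 8.89 CPM in shAdar2 and 14.58 and 35.06 CPM in shAdar1 (-1.90 ± 0.44, adjusted p = 0.00839). Hist1h2be had 16.03 and 23.4 CPM in shAdar2 and 34.8 and 49.77 CPM in shAdar1 (-1.11 ± 0.23, adjusted p = 0.00532). In both genes all shAdar2 values lay below all shAdar1 values. The higher genes were Hist2h2ab (1.03 ± 0.32, adjusted p = 0.0284) and Hist1h2ap, with the limit above. Without replicate 1 of shAdar1 the call was lower in 27 genes. Without replicate 2 of shAdar1 it was lower in 1 gene and higher in 1, and without replicate 1 of shAdar2 lower in 7.

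In the Zfr knockdown 2 of 64 histone genes rose and 0 fell against shControl2, or 3.12% higher, where 16.7% of all genes were called higher and 14.1% lower. In the same edgeR test 5 genes had an unadjusted p below 0.05. The median log2 fold change was 0.19, against 0.05 over all genes, and the H4 median was -0.08. Both shZfr samples lay above both shControl2 samples in 25 genes (39.1%, against 42.9% of all) and below them in 7 (10.9%, against 35.7%). The genes that rose were both of the H2A class. Hist3h2a had 29.46 and 28.5 CPM in shZfr and 13.45 and 10.55 CPM in shControl2, a rise of 2.42-fold (1.27 ± 0.27, adjusted p = 0.00625). Hist2h2aa1 had 46.15 and 42.53 CPM in shZfr and 26.29 and 24.2 CPM in shControl2, a rise of 1.76-fold (0.81 ± 0.20, adjusted p = 0.0141). In both genes the replicates were close and the groups far apart.

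The value of Hist3h2a in shZfr depended on the control. Against shControl1 (41.16 and 30.79 CPM) the shZfr samples gave -0.31 (adjusted p = 0.344). Hist3h2ba, an H2B gene that lies near it on chromosome 11, had 9.55 and 9.4 CPM in shZfr and 9.45 and 7.63 CPM in shControl2, and was not called. Leaving out any of the 4 samples in turn left 0 or 1 gene called higher, and without replicate 2 of shZfr 1 gene was also called lower. Hist3h2a lost its call without replicate 2 of shControl2 (1.1, adjusted p = 0.0695). Hist2h2aa1 was not called without any one of the 4 (0.75 to 0.86, adjusted p from 0.0621 to 0.102). With only the 4 samples of this comparison in the fit, 11 histone genes were called higher and 4 lower. In that fit 7909 of all 13932 genes tested were called in either direction. Astrocyte markers summed to 533 and 513.8 CPM in shZfr, against 1445 and 1742 CPM in shControl2. Of these 8, 4 were called lower (50%, beside 14.1% of all genes) and 1 higher (12.5%, beside 16.7%). Called higher were 1 of 20 G2 and mitosis genes (5%, median 0.72) and 3 of 34 S phase genes (8.82%, median 0.54), with 1 S phase gene lower. Both shZfr samples lay above both shControl2 samples in 100% and 76.5% of these genes, beside 42.9% of all. The part of the astrocyte and cell cycle genes in the histone values was not tested.

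**Figure D4:**
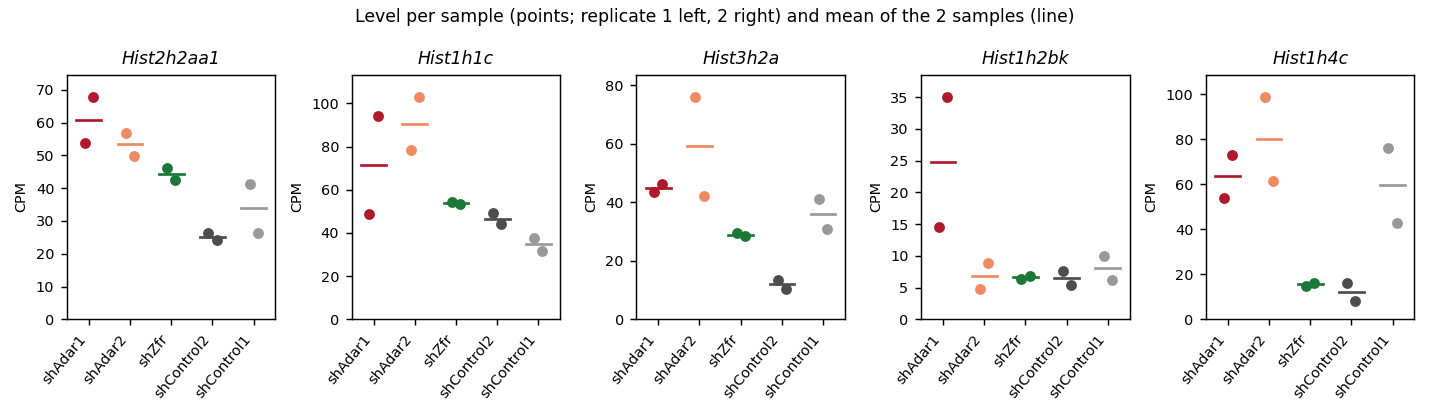
CPM per sample for 5 histone genes; points are samples and lines the means of the 2 samples of a group. Hist2h2aa1 is higher in each knockdown group than in its own control group, Hist1h2bk is highest in shAdar1 replicate 2 (35.06 CPM), and Hist1h4c is low in both shZfr (14.9 and 16.29 CPM) and shControl2 (16.36 and 8.31 CPM).

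Hist2h2aa1 was thus called higher in all 3 knockdowns against the control the study set for each, with no overlap between groups, although shAdar1 and shAdar2 share their controls and each call was lost without at least 1 library. In shZfr against shControl1 its value was 0.39 ± 0.20 (adjusted p = 0.135). Hist1h1c and Hist2h2ac were called in shAdar1 and shAdar2, and Hist3h2a in shAdar2 and shZfr.

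The control hairpins themselves differed. Of 64 histone genes, 18 were lower and 0 higher in shControl2 than in shControl1 (28.1% lower), beside 23.2% of all genes called lower and 19.9% higher. The median was -0.5, against -0.05 over all genes. Among 228 other genes shorter than 600 bases 71.9% were called lower, with a median of -1.27. Both shControl2 samples lay below both shControl1 samples in 29 genes (45.3%, against 41.1% of all). The largest difference was in Hist1h4c (GRCm38 chr13:23698084-23698458, minus strand), with 16.36 and 8.31 CPM in shControl2 and 75.9 and 42.99 CPM in shControl1 (-2.27 ± 0.37, adjusted p = 0.00116). Hist1h3e had 5.30 and 2.24 CPM in shControl2 and 19.95 and 13.94 CPM in shControl1 (-2.17 ± 0.40, adjusted p = 0.00227). Hist2h4 had 5.44 and 3.15 CPM in shControl2 and 21.79 and 11.5 CPM in shControl1 (-1.95 ± 0.40, adjusted p = 0.00356). In each of them the shControl2 samples lay far below both shControl1 samples.

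All 3 Hist3 genes were lower in shControl2. Hist3h2a had 13.45 and 10.55 CPM in shControl2 and 41.16 and 30.79 CPM in shControl1 (-1.58 ± 0.26, adjusted p = 0.00127). Hist3h2ba had 9.45 and 7.63 CPM in shControl2 and 29.59 and 21.83 CPM in shControl1 (-1.59 ± 0.23, adjusted p = 0.000657), and the annotated pseudogene Hist3h2bb-ps had a value of -1.49 ± 0.32 (adjusted p = 0.00448). Of the others, Hist1h3f (-1.81 ± 0.36, adjusted p = 0.00314) and Hist4h4 (-2.05 ± 0.47, adjusted p = 0.00621) had differences of similar size. By class, 7 of 13 H4, 5 of 12 H3, 4 of 18 H2B, 2 of 16 H2A and 0 of 5 H1 genes were called lower, and 4 of the 5 H1 values were positive. Unadjusted p was below 0.05 in 0 of the 5 H1 genes in this edgeR test. Called lower here and higher in a knockdown were Hist1h2be (shAdar1), Hist1h3e, Hist1h3f and Hist2h2ab (shAdar2) and Hist3h2a (shAdar2 and shZfr). The count of 18 became 6 without replicate 2 of shControl2 and 8 without replicate 1 of shControl1.

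In this comparison the log2 values varied with transcript length, and the cause of that relation was not tested. The median length was 403 bases for H4, 497 for H3, 467 for H2B, 496 for H2A and 760 for H1 genes, against 2882 bases for all genes tested, and 56 of the 68 histone genes were shorter than 600 bases. H4, the shortest class, and H1, the longest, had the median log2 values -0.98 and 0.20, while H3 (-1.01) and H2A (-0.33) differed at almost the same median length. Genes that are no histones showed a dependence on length. Their median log2 fold change in shControl2 against shControl1 was -1.5 below 400 bases, -1.41 from 400 to 500, -1.1 from 500 to 600, -0.88 from 600 to 1000 and 0.09 above 2000 bases. Histone genes of the same lengths had medians of -1.39, -0.71, -0.40, 0.16 and -0.11. Up to 1000 bases the histone medians were thus higher than those of other genes of the same length, with 6, 33, 14 and 8 histone genes in the 4 bins. The fragment length implied by the deposited effective lengths was 230.1 and 234.5 bases in shControl2, 231 and 236.4 in shZfr and 209.7 and 210.4 in shControl1. In shAdar1 it was 220.2 and 225.4 bases and in the shAdar2 libraries 194.3 to 215.7.

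**Figure D5:**
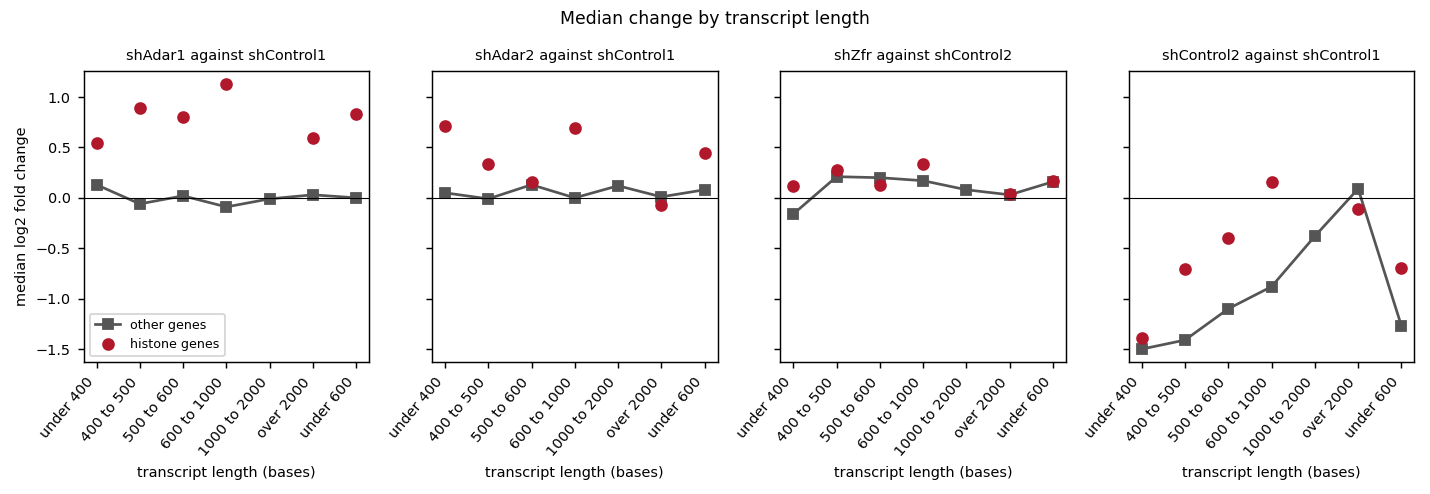
Median log2 fold change by transcript length for histone genes (circles) and for all other genes tested (squares) in the 4 comparisons. The last position at the right is not a longer bin but pools all genes under 600 bases (-1.27 for other genes in shControl2 against shControl1), so it repeats the bins of short genes. Only in shControl2 against shControl1 do the other genes fall with shorter length, to -1.5 below 400 bases, while in the other panels their medians lie between -0.16 and 0.21.

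With an offset per sample for the relation of level to transcript length, estimated on genes other than histones and added after seeing the data, the direction in shControl2 against shControl1 turned. The histone median was then 0.52, with 14 genes called higher and 3 lower, beside 5734 of all 14785 genes called in either direction. The 3 that stayed lower were Hist1h3e (-0.95, adjusted p = 0.0404), Hist1h3f (-1.09, adjusted p = 0.0226) and Hist1h4c (-0.87, adjusted p = 0.029). Among the higher were Hist1h1d (1.62), Hist1h1c (1.33), Hist1h2ag (1.65), Hist1h2bn (1.63) and Hist2h2aa1 (0.71). For the knockdowns the offset left the medians at 0.87 in shAdar1, 0.45 in shAdar2 and 0.04 in shZfr, with 18, 17 and 2 genes called higher. Of all 14785 genes, 2559, 6928 and 4555 were called in either direction in the same order. Hist2h2aa1 remained called in each of these 3 comparisons, with log2 values of 0.91, 0.70 and 0.64.

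Of 4 other tested RNAs without a poly(A) tail, 2 were called lower in shControl2 than in shControl1 (50%, beside 23.2% of all genes). Rpph1, the RNA of ribonuclease P, had 193.3 and 122.4 CPM in shControl2 and 926.5 and 502.7 CPM in shControl1 (-2.18 ± 0.28, adjusted p = 0.000337). Rmrp, the RNA of ribonuclease MRP, had 365.7 and 392.7 CPM in shControl2 and 907.6 and 646.4 CPM in shControl1 (-1.03 ± 0.17, adjusted p = 0.00131). Both lay in the same direction as the histone genes and as short genes of other kinds. Of 228 genes under 600 bases that are no histones, 71.9% were called lower (median -1.27). Cell cycle genes lay in the other direction, with medians of 1.15 over 20 G2 and mitosis genes and 0.28 over 34 S phase genes. Of the G2 and mitosis genes 10 were called higher in shControl2 (50%, beside 19.9% of all genes), and of the S phase genes 7 were called higher and 1 lower, a share of 20.6% that is near that background. Mki67, a marker of cycling cells, had 211.2 and 216.5 CPM in shControl2 and 69.79 and 65.99 CPM in shControl1 (1.66 ± 0.48, adjusted p = 0.0198). Of the cell type lists, 6 of 11 progenitor (54.5%) and 7 of 8 astrocyte markers (87.5%) were called higher in shControl2. So were 5 of 7 oligodendrocyte lineage markers (71.4%), and none of these markers was called lower. Of 13 neuronal markers 7 were called higher (53.8%) and 1 lower (7.69%), beside 19.9% and 23.2% of all genes. Of 9 endothelial, mural and fibroblast markers 3 were higher and 2 lower (33.3% and 22.2%), and of 4 microglial markers 0 were called. The part of the cell types and of the fragment length in the histone values was not tested.

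Set against the other control, the knockdowns gave other counts. In shAdar1 against shControl2 46 of 64 genes were higher and 0 lower (71.9%, beside 19.3% of all genes higher). In shAdar2 against shControl2 33 were higher and 0 lower (51.6%, beside 32.2%). In shZfr against shControl1 2 were higher and 16 lower (25%, beside 22.8% of all genes higher and 23.4% lower). For Hist1h4c the log2 fold changes were 2.37 ± 0.37 in shAdar1 and 2.71 ± 0.38 in shAdar2 against shControl2, and -1.93 ± 0.37 in shZfr against shControl1. Other genes of similar length moved the same way in all 3 comparisons. Of 228 other genes shorter than 600 bases, 68.9% were called higher in shAdar1 and 70.2% in shAdar2 against shControl2, and 66.7% were called lower in shZfr against shControl1. The histone shares of 71.9%, 51.6% and 25% were thus close to, below and below those of short genes. The 53 tested histone genes under 600 bases had medians of 1.66, 1.03 and -0.44 in these comparisons, and the other genes 1.14, 1.26 and -1.09.

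Genes that make, process or replace these histones were counted from lists. Of 23 genes for transcription, 3′ end processing and decay of histone messages, 1 rose and 0 fell in shAdar1 against shControl1 (4.35% higher, beside 9.33% of all genes). In shAdar2 against shControl1 5 rose and 9 fell (21.7% and 39.1%, beside 23.2% of all genes in each direction), so that the share higher was near the background. In shZfr against shControl2 9 rose and 0 fell (39.1% higher, beside 16.7% of all genes). In shControl2 against shControl1 4 were higher and 7 lower (17.4% and 30.4%, beside 19.9% and 23.2% of all genes). Slbp, which encodes the stem-loop binding protein, had 30.94 and 22.04 CPM in shAdar2 and 38.78 and 34.04 CPM in shControl1 (-0.45 ± 0.16, adjusted p = 0.0403). Npat, which encodes the coactivator of histone gene transcription, had 31.64 and 35.83 CPM in shAdar2 and 49.46 and 52.01 CPM in shControl1 (-0.59 ± 0.12, adjusted p = 0.00325). Both fell in the knockdown in which 9 histone genes rose. Npat was higher in shControl2 (70.28 and 83.24 CPM) than in shControl1 (0.60 ± 0.12, adjusted p = 0.0032).

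Lsm10, a subunit of the U7 particle that directs cleavage after the stem-loop, had 3.15 and 1.74 CPM in shControl2 and 12.8 and 11.3 CPM in shControl1 (-2.30 ± 0.28, adjusted p = 0.000235), and rose in shZfr against shControl2 (0.98 ± 0.28, adjusted p = 0.0265). Of 16 histone chaperones, 4 rose in shAdar1 (25%, beside 9.33% of all genes), 1 rose and 6 fell in shAdar2 (6.25% and 37.5%, beside 23.2% in each direction), and 5 rose in shZfr (31.2%, beside 16.7%). Of 11 histone variants made outside S phase, 3 rose and 1 fell in shAdar1 (27.3% and 9.09%, beside 9.33% and 6.9% of all genes). In shAdar2 3 rose and 2 fell (27.3% and 18.2%), near the 23.2% of all genes in each direction, and in shZfr 6 rose and 0 fell (54.5% higher, beside 16.7%). H3f3b, which encodes H3.3, had 202 and 184.4 CPM in shAdar2 and 560.5 and 524.3 CPM in shControl1 (-1.49 ± 0.11, adjusted p = 1.94e-05). In shZfr it had 935.5 and 955.7 CPM against 528.5 and 589.4 CPM in shControl2 (0.76 ± 0.10, adjusted p = 0.000737). H3f3b thus fell in shAdar2, where the replication-dependent H3 genes had a median of 0.77, and rose in shZfr, where their median was 0.33. H3f3a, the other H3.3 gene of the list, differed less in shAdar2 (218.8 and 218.4 CPM, against 279.8 and 224.3 CPM in shControl1). In shZfr H3f3a had 393 and 408.6 CPM, against 221.5 and 172.6 CPM in shControl2.

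Several genes share almost all of their sequence, and the authors' estimates divide reads among them. The posterior SD of the count exceeded 10% of the count in 6 tested genes, namely Hist1h2ap, Hist1h2bq, Hist1h2br, Hist1h4m, Hist2h3c1 and Hist2h3c2, and its median over the tested histone genes was 1.78%. Hist1h2bq and Hist1h2br received equal counts in every sample. For Hist2h3c1 the log2 value in shZfr against shControl2 was -2.02 ± 1.06 (adjusted p = 0.178), while the sum of Hist2h3c1 and Hist2h3c2 gave 0.67. Hist1h4m and Hist1h4n, both lower in shControl2 than in shControl1, gave -1.52 as a pair. Sums over a class do not depend on this division. The class sums gave log2 ratios for shAdar1 over shControl1 of 1.16 for H1, 0.77 for H2A, 0.95 for H2B, 0.85 for H3 and 0.62 for H4. For shAdar2 over shControl1 they were 0.84, 0.49, 0.13, 0.66 and 0.61 for the same classes in that order. For shZfr over shControl2 they were 0.35, 0.53, 0.22, 0.30 and 0.10.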

How the data were processed

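Ribosome-depleted RNA of 12 libraries was sequenced, and 3 technical libraries of shAdar2 replicate 1 were summed, which left 10 samples in 5 groups of 2. The authors deposited per-gene expected counts and TPM with effective lengths and posterior standard deviations of the counts, made with RSEM 1.2.30 per the file headers and the submitters' processing notes. These notes also name Trim Galore 0.4.5, STAR 2.5.4b, SAMtools 1.4, DESeq2 1.20.0 and the mm9 build, with no role or order given.

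Expected counts were rounded and tested with edgeR 4.0.16 in R 4.3.3 (filter by expression in groups, TMM scaling, quasi-likelihood F test over all 10 samples), with Benjamini-Hochberg adjustment over 14785 genes and a threshold of 0.05. The fit was tested on simulated data. CPM are TMM-scaled counts of the samples, and technical libraries are given as CPM of their own totals. TPM as deposited were used to compare levels between genes, averaged over the technical libraries. Depth was 15818943 to 29671858 counts per library, and 3 counts, the limit that a count of 0 allows, equal 0.101 to 0.19 CPM (counting error only).

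The histone genes and the lists were chosen with earlier results of these data known. Named were the highest gene of each class by TPM, up to 8 called genes per comparison by lowest p, those called in opposite directions, and up to 3 called genes per list and comparison. Hist1h1b, Hist1h2ag, Hist1h2ah, Hist1h2bh, Hist1h2bm, Hist1h2bn, Hist2h2be and Hist2h3c1, and other genes beyond this rule, were picked after their values were seen. Alternatives were DESeq2 1.42.0, its size factors, no filter, Rn45s left out, the compared samples alone, a replicate block, the other control, single technical libraries, samples left out and, chosen after seeing the data, a length offset (lowess, span 0.2). Sequences are from RefSeq (GRCm38.p6) and GENCODE M21, and the files give no coordinates.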

Additional observations from a re-analysis of the deposited data

How the results depend on the processing

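With 2 samples a group, counts of called genes moved with single samples. Leaving out each sample in turn gave 0 to 25 genes higher in shAdar1, 2 to 17 higher and 0 to 2 lower in shAdar2, 0 to 1 higher and 0 to 1 lower in shZfr, 6 to 21 lower in shControl2 against shControl1, and 0 to 6 higher and 1 to 27 lower in shAdar2 against shAdar1, with 33 to 59 genes differing over the 5 groups. A lone sample was assumed to vary like the other groups. Log2 ratios of the summed level spanned 0.34 to 1.22 in shAdar1, 0.23 to 0.9 in shAdar2, 0.13 to 0.49 in shZfr and -0.9 to -0.23 in shControl2.

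DESeq2 called 25 genes higher in shAdar1 and 4 in shZfr, and 0 higher and 22 lower in shAdar2 against shAdar1. Without a filter 27, 15 and 4 were higher in shAdar1, shAdar2 and shZfr, and 24 lower in shAdar2 against shAdar1. With only the compared samples, 1693 of 14173 genes were called in shAdar1, 7909 of 13932 in shZfr and 7537 of 14222 in shControl2. Among the histone genes 1 was higher in shAdar1, 11 higher and 4 lower in shZfr and 2 higher in shControl2. In shAdar2 against shAdar1 2445 of 14376 genes were called, and of the histone genes 1 was higher and 3 lower. The second technical library alone gave 1 higher there. With the other control 46 were higher in shAdar1, 33 higher in shAdar2 and 16 lower in shZfr, Hist3h2a reversed to -0.31 in shZfr, and the summed log2 ratio was 1.13 in shAdar2 and -0.3 in shZfr. The length offset gave 18 higher in shAdar1, 17 in shAdar2, and 14 higher and 3 lower in shControl2, where Hist1h2be (0.36), Hist1h3i (0.01), Hist1h4d (0.53) and Hist1h4m (0.39) reversed. Of all 14785 genes the offset called 2559, 6928 and 5734 in these comparisons, in either direction. The causes were not tested.

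With 2 pairs a comparison and no label of a shared batch, replicate numbers were not taken to pair the samples (correlations of deviations -0.12 in shAdar1, -0.097 in shAdar2, 0.08 in shZfr, -0.065 in shControl2, each with its control, and 0.281 in shAdar2 against shAdar1). The replicate block gave 7 higher in shAdar1 and 15 with crossed numbers, chosen after seeing the data, and 8 in shAdar2, 2 in shZfr, 18 lower in shControl2, and 2 higher and 14 lower in shAdar2 against shAdar1.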
